A study of Mus musculus with 6 samples.

Results

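Hair cells (HCs) are the sensory cells of the inner ear, and the transcription factors that form and maintain them, or that prepare the otic epithelium for them, were followed in the vestibular epithelium of mice exposed to the HC toxicant IDPN (3,3'-iminodipropionitrile). The group was chosen by gene symbol and held 9 of the 52636 genes in the table, namely Atoh1, Pou4f3, Gfi1, Lhx3, Barhl1 and Insm1 as HC factors and Isl1, Eya1 and Sox2 as otic and prosensory factors. Male 129S1/SvImJ mice, 2 to 4 months old, drank either plain water (Control, 3 animals) or water with 30 mM IDPN for 8 weeks (IDPN, 3 animals). Each library came from 1 animal and pooled the epithelia of 2 utricles and 6 cristae, so every value below averages HCs, supporting cells and the other cells of the dissected tissue. No allele, transgene or other agent separates the groups in the labels, and HC numbers per animal were not analysed here.

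In the developing ear, EYA1 acts early in the formation of the otic epithelium, and SOX2 marks the prosensory cells from which both HCs and supporting cells arise. ATOH1, a basic helix-loop-helix factor, starts HC differentiation, and the POU-homeodomain factor POU4F3 and the zinc finger repressor GFI1 follow it and keep HCs alive, GFI1 also by holding neuronal genes silent. LHX3 and ISL1 are LIM-homeodomain factors and BARHL1 is a homeodomain factor needed for long-term HC survival, while INSM1 is a zinc finger factor best known in outer HCs of the cochlea and in neuroendocrine cells.

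The sequence before the transcription start is shown for factors of the ATOH1 cascade, because ATOH1 and its E protein partners bind E-boxes. RefSeq promoter sequences on GRCm38.p6 were found for 6 of the 9 genes, with 9 start sites among them, and the 250 bases before each start were searched on both strands. None was found for Pou4f3, Insm1 and Eya1, so their promoters were not searched. In the lines that follow, capitals mark an E-box of the form CAGNTG, read on either strand. For Barhl1, Lhx3 and Atoh1, bases that lie in an annotated exon of the same gene were left out. For Gfi1, whose window holds 82 such bases, only a site of 30 bases around the motif is given. That site lies before the RefSeq start but within the annotated span of Gfi1, chr5:107716657-107726036.
Gfi1, chr5:107725830-107725859, minus strand: caggcgggtcccCACCTGctgcagagcatc
Barhl1, chr2:28916669-28916918, minus strand: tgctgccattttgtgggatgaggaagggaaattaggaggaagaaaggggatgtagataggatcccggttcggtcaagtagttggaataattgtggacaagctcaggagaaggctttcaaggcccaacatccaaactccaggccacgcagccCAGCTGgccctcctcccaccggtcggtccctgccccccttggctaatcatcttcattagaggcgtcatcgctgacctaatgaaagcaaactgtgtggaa
Lhx3, chr2:26208290-26208499, minus strand: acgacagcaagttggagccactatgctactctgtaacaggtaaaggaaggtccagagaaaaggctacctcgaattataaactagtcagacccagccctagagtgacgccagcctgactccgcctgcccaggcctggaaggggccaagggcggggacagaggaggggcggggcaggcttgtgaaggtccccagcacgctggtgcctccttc
Atoh1, chr6:64728875-64729124, plus strand: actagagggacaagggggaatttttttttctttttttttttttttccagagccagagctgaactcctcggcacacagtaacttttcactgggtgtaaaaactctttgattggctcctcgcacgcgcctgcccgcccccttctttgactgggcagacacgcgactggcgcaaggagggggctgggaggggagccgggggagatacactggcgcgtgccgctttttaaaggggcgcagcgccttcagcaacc

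The Gfi1 E-box, CACCTG, began 42 bases before the first of 2 Gfi1 start sites, and the Barhl1 E-box, CAGCTG, 99 bases before the first of 2 Barhl1 start sites. The second Barhl1 start had a CAGCTG 15 bases upstream, the second Lhx3 start a CATCTG 215 bases upstream, and the Isl1 start a CAGCTG 103 bases upstream. No such E-box lay in these windows of Atoh1, Sox2, the second Gfi1 start or the first Lhx3 start. The same letters occurred before 44.8% of the 32851 mouse start sites searched, so an E-box was a common feature and sets none of the searched members apart. Of the rarer motifs, the GFI1 core AAATCAC (2.75% of all starts) occurred once, before the second Barhl1 start, and the homeodomain core TAATTA (4.84%) and the POU octamer ATGCAAAT (1.601%) occurred before none of the 9 starts.

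Libraries held between 40474847 and 43566332 estimated counts, and no replicate pair came near to sampling noise. The share of counts in the top 100 genes was 48.3 to 54.5% in the Control libraries and 44.6 to 48.2% in the IDPN libraries (two-sided exact permutation p = 0.10, the lowest value possible with 3 libraries a group). Normalized counts are the estimated counts divided by DESeq2's size factor of the library, Padj is the p-value adjusted over all tested genes, and a gene was called when Padj was under 0.05 and the fold change over 1.5. The median log2-Fold_Change of all 17650 tested genes was 0.02 with DESeq2's size factors and 0.27 when libraries were scaled by total counts. The labels place all libraries in 1 batch, and the animal codes of the Control mice share a stem that no IDPN mouse has, while IDPN 1 has another stem than IDPN 2 and IDPN 3, so the stem and the treatment cannot be told apart.

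Pou4f3 and Gfi1 were downregulated in IDPN to 49.95% and 43.4% of their Control means. Pou4f3 (ENSMUSG00000024497.3, chromosome 18; all positions are on GRCm38) had normalized counts of 6831, 6387 and 5843 in the Control animals, in their numbered order, and of 3105, 3261 and 3155 in the IDPN animals. The 3 IDPN animals lay within a narrow band, far below the lowest Control animal. The means were 6354 ± 494.5 and 3174 ± 79.6 (SD, n = 3 each), and the log2-Fold_Change was -1.001 (SE 0.14, 95% interval -1.28 to -0.72, DESeq2 Padj = 9.34e-10). In this tissue fewer HCs and less RNA per HC cannot be told apart, which holds for every factor described here.

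Gfi1 (ENSMUSG00000029275.18, chr5:107716657-107726036, minus strand) had 2251, 2487 and 2891 normalized counts in Control and 1163, 983 and 1162 in IDPN. The highest IDPN animal was far below the lowest Control animal. Means were 2543 ± 323 and 1103 ± 104 (SD, n = 3 each), for a log2-Fold_Change of -1.21 (SE 0.17, 95% interval -1.54 to -0.87, DESeq2 Padj = 2.87e-10). Among the 8 factors with a Padj this was the lowest Padj and the largest change, although the intervals of Gfi1 and Pou4f3 overlap. The exons of Gfi1 share 101 bases, 3.17% of its exon length, with A430072P03Rik on the other strand, and the reads carry no strand. That neighbour had only 22 to 62 raw counts per library.

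**Figure D1:**
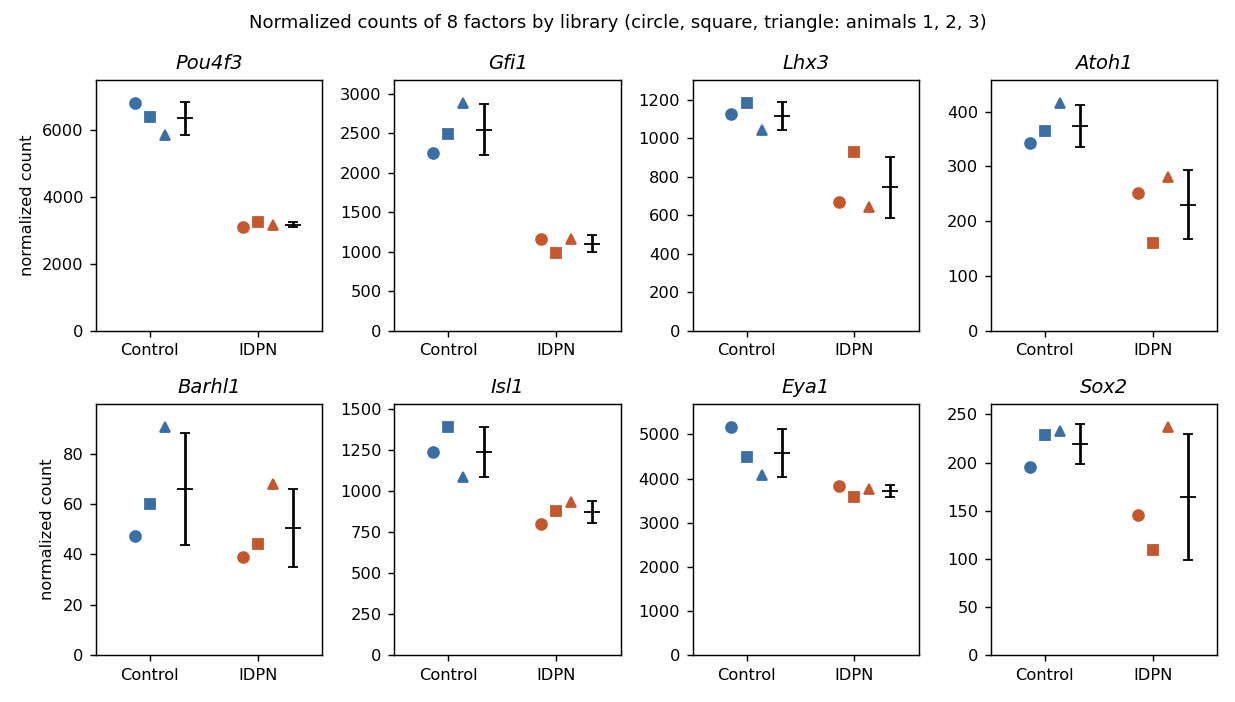
Normalized counts (vertical axes, from 0) of 8 factors in each Control and IDPN animal, with black marks for the mean and bars for the SD (n = 3). Pou4f3, Gfi1, Lhx3, Atoh1, Isl1 and Eya1 have every IDPN animal below every Control animal, while Barhl1 and Sox2 overlap.

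Lhx3 (ENSMUSG00000026934.15, chr2:26200212-26208289, minus strand) stood at the edge of the call. Its normalized counts were 1123, 1184 and 1039 in Control and 668, 927 and 639 in IDPN. All IDPN animals were below all Control animals, but IDPN 2 lay much nearer to Control than the other two. The log2-Fold_Change was -0.58 (SE 0.19, 95% interval -0.96 to -0.20, DESeq2 Padj = 0.0443), and the fitted change of 1.498-fold fell just short of the 1.5-fold limit, so Lhx3 was not called. It passed both limits without IDPN 2 (log2-Fold_Change -0.77, DESeq2 Padj = 0.00135) and without Control 3 (-0.63, Padj = 0.0369), whereas edgeR gave an adjusted p of 0.0900. With total-count scaling Lhx3 was at -0.34 (DESeq2 Padj = 0.378). Over 14 fits with different tools, scalings, filters and left-out libraries, its adjusted p was under 0.05 in 7, and it was called in 2. Its exons share 188 bases, 6.17% of their length, with the opposite-strand gene Gm27196, which had 12 to 47 raw counts per library.

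Atoh1 (ENSMUSG00000073043.5, chr6:64729125-64731245, plus strand), a gene with a single exon, was still detected in the adult epithelium, with 342, 364 and 416 normalized counts in Control and 251, 160 and 280 in IDPN. The groups did not overlap, but the IDPN animals spread widely, with IDPN 2 the lowest. The log2-Fold_Change of -0.70 (SE 0.25, 95% interval -1.19 to -0.21) had a DESeq2 Padj of 0.0703 and did not pass the test. It passed in 0 of the 14 fits made across tools, scalings, filters and left-out libraries.

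Barhl1 and Insm1 were the scarce HC factors. Barhl1 (ENSMUSG00000026805.14, chr2:28907679-28916668, minus strand) had 47.3, 60.0 and 90.7 normalized counts in Control and 38.9, 44.2 and 68.1 in IDPN, and the groups overlapped. Its log2-Fold_Change was -0.40 with an interval from -1.22 to 0.43 (DESeq2 Padj = 0.726), which leaves both a large decrease and a moderate increase possible. It ran from -0.091 without Control 3 to -0.68 without IDPN 3, and passed in neither fit. Insm1 (chr2:146221921-146225020, plus strand) had 0, 4 and 1 raw counts in Control and 0, 2 and 0 in IDPN, too few for a test or a fold change.

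The otic factors also had lower means in IDPN, and none of the 3 was called with DESeq2 or edgeR, while Isl1 alone had an unadjusted p under 0.05. Isl1 (ENSMUSG00000042258.13, chr13:116298281-116309689, minus strand) had 1238, 1389 and 1084 normalized counts in Control and 797, 877 and 930 in IDPN. The groups did not overlap, and the nearest animals were Control 3 and IDPN 3. The log2-Fold_Change was -0.51 (SE 0.17, 95% interval -0.85 to -0.17) with a DESeq2 Padj of 0.0513, just above the threshold. Without Control 3 it passed both limits (log2-Fold_Change -0.60, DESeq2 Padj = 0.00950). Over the 14 fits, the adjusted p of Isl1 was under 0.05 in 4, and it was called in 1. The edgeR adjusted p was 0.0822, and total-count scaling gave -0.25 (DESeq2 Padj = 0.524).

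Eya1 (ENSMUSG00000025932.14, chr1:14168954-14310235, minus strand) had 5172, 4498 and 4077 normalized counts in Control and 3832, 3577 and 3759 in IDPN. The groups did not overlap, although Control 3 lay close to IDPN 1. The log2-Fold_Change was -0.30 (SE 0.15, 95% interval -0.60 to 0.0036, DESeq2 Padj = 0.303), and with total-count scaling it was -0.03.

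Sox2 (ENSMUSG00000074637.7, chr3:34650405-34652461, plus strand), also a gene with a single exon, had 195, 229 and 233 normalized counts in Control and 146, 109 and 237 in IDPN. The Control animals were alike, with a coefficient of variation of 9.43%, whereas that of the IDPN animals was 40.1% and IDPN 3 was the highest of all 6 libraries. The log2-Fold_Change of -0.42 (SE 0.30, 95% interval -1.01 to 0.17) did not pass the test (DESeq2 Padj = 0.534). It ranged from -0.20 without IDPN 2 to -0.78 without IDPN 3, with no call in either fit.

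Across the group, 8 of the 8 factors with a Padj had negative log2-Fold_Change values, and 48.4% of all tested genes did. For 6 of the 8, every IDPN library was below every Control library, which was so for 11.4% of all tested genes. Padj was under 0.05 for 3 of the 8, Pou4f3, Gfi1 and Lhx3, against 3.9% of all tested genes that passed at any fold change and were lower. Calls at Padj under 0.05 with a fold change over 1.5 were made for 2 of the 8, both lower, against 3.42% of all tested genes called lower. The HC factors had a median log2-Fold_Change of -0.70 and the otic factors one of -0.42. With so few genes these are descriptions of the named factors only.

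**Figure D2:**
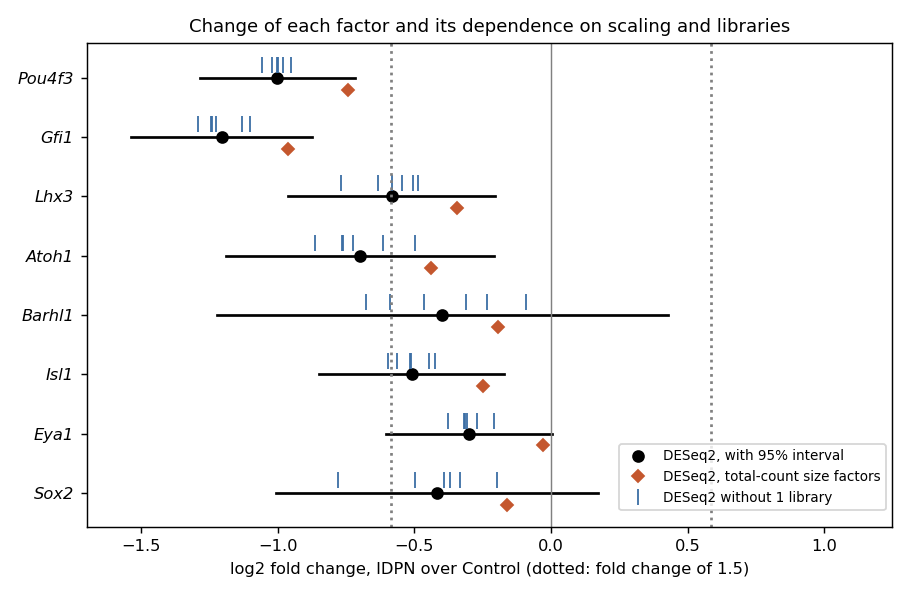
Log2-Fold_Change of 8 factors, IDPN over Control (horizontal axis), with black points and lines for the DESeq2 value and its 95% interval, orange diamonds for total-count scaling and blue ticks for fits without 1 library. Pou4f3 at -1.001 and Gfi1 at -1.21 lie beyond the dotted 1.5-fold line under each setting drawn, and total-count scaling moves all 8 points toward 0.

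Pou4f3 and Gfi1 were called in 14 of 14 fits. Under total-count scaling, where the median of all tested genes stood at 0.27, Pou4f3 was at -0.74 (DESeq2 Padj = 0.00666) and Gfi1 at -0.96 (Padj = 0.00811), with 1.28% of genes called lower. The edgeR quasi-likelihood test gave adjusted p-values of 0.00452 for Pou4f3 and 0.00267 for Gfi1, with 2.19% of genes called lower. When the change itself was tested against 1.5-fold, Gfi1 passed (DESeq2 Padj = 0.0349) and Pou4f3 did not (Padj = 0.323), while 0.582% of genes passed lower.

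Levels between genes were compared per length, as TPM values, here the count divided by the merged exon length of the gene and scaled to a common total. In Control, Pou4f3 was the most abundant factor at 125.8 ± 15.01 TPM (SD, n = 3), followed by Gfi1 at 38.9 ± 12.7, Eya1 at 27.8 ± 2.77, Lhx3 at 17.4 ± 2.42, Isl1 at 14.8 ± 1.64, Atoh1 at 8.57 ± 2.60, Sox2 at 5.15 ± 1.39 and Barhl1 at 0.846 ± 0.458. Insm1 was last, at 0 to 0.0651 TPM. The ranges of the neighbours Gfi1 and Eya1 overlapped, as did those of Lhx3 and Isl1, so their order is not settled, and the other neighbours did not overlap. In IDPN, Pou4f3 was still first at 80.8 ± 8.85 TPM, and Eya1 at 29.3 ± 4.86 had a higher mean than Gfi1 at 21.3 ± 4.51, again with overlapping ranges. TPM keeps the total fixed, so the wider spread of counts over genes in IDPN enters these values. On this scale every IDPN animal was below every Control animal for 2 of 8 factors, Pou4f3 and Gfi1, and for 2.76% of the tested genes with an exon length.

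Whether the factors fell more or less than other HC genes was examined by dividing each by the geometric mean of 22 genes for HC structure and function in the same library. That mean of normalized counts was 1421 ± 131 for Control (SD, n = 3) and 850.6 ± 43.9 for IDPN (SD, n = 3), a log2 difference of -0.74 (two-sided exact permutation p = 0.10, the smallest possible). Gfi1 over HC genes gave log2 ratios of 0.80, 0.81 and 0.89 for Control against 0.38, 0.21 and 0.53 for IDPN. These did not overlap, and their difference was -0.46 (exact permutation p = 0.10, adjusted p = 0.40 over the 8 factors). Gfi1 was thus lower relative to the HC genes in 3 of 3 IDPN animals, in a design that cannot reach the threshold.

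The log2 ratios of Pou4f3, at 2.40, 2.17 and 1.91 for Control against 1.79, 1.94 and 1.97 for IDPN, overlapped between the groups, with a difference of -0.26 (exact permutation p = 0.30, adjusted p = 0.64). Eya1 went the other way, with 2.00, 1.67 and 1.39 for Control against 2.10, 2.07 and 2.22 for IDPN, and a difference of 0.44 without overlap (exact permutation p = 0.10, adjusted p = 0.40). The differences of Atoh1 (0.0015), Lhx3 (0.14), Isl1 (0.23), Sox2 (0.25) and Barhl1 (0.36) came with overlapping groups. The choice of HC genes moved these values. Of the 22, the genes Ocm, Ptprq and Xirp2 are among those that the study selected as downregulated on these libraries and others, and are not independent. Without them Gfi1 was at -0.63, Pou4f3 at -0.43 and Eya1 at 0.28, and Atoh1 (-0.17) and Lhx3 (-0.03) turned negative. Against Myo7a alone, an HC myosin whose log2-Fold_Change was 0.01 (DESeq2 Padj = 0.987), Gfi1 stood at -1.25, Pou4f3 at -1.04 and Eya1 at -0.34, so the sign for Eya1 depended on the reference. Myo7a was itself uneven, with 643, 680 and 1074 normalized counts in Control and 947, 683 and 793 in IDPN.

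**Figure D3:**
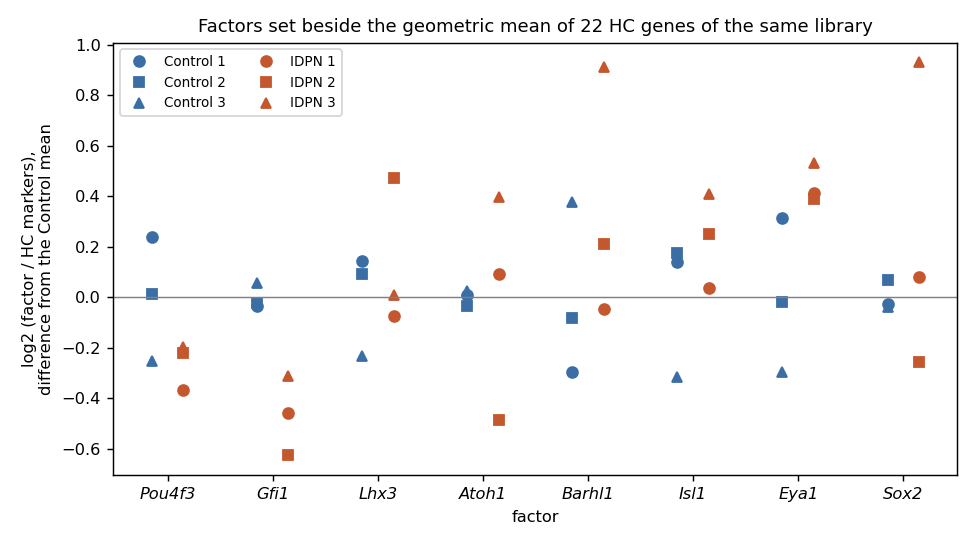
Log2 ratio of each factor to the geometric mean of 22 HC genes in the same library, drawn as the difference from the Control mean (vertical axis), for 3 Control and 3 IDPN animals. The 3 IDPN points of Gfi1 lie below all Control points, those of Eya1 lie above, and the other 6 factors overlap.

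Ratios between factors of the same library need no scaling. Among 8 pairs, Gfi1 over Pou4f3 was 0.3295, 0.389 and 0.495 in Control and 0.374, 0.301 and 0.368 in IDPN, so that a larger fall of Gfi1 than of Pou4f3 was not detectable (log2 difference -0.20, exact permutation p = 0.40). Eya1 over Pou4f3 was 0.757, 0.704 and 0.698 in Control and 1.23, 1.097 and 1.19 in IDPN. In each IDPN animal Eya1 thus had more counts than Pou4f3, and in each Control animal fewer. These are counts without regard to gene length. Per length, Pou4f3 stayed above Eya1 in each IDPN animal, at 72.8 to 90.3 against 24.5 to 34.2 TPM. Isl1 and Lhx3 over Pou4f3 were also higher in 3 of 3 IDPN animals, with log2 differences of 0.49 and 0.40, and Gfi1 over Lhx3 was lower in 3 of 3, with a log2 difference of -0.60. For each of these 4 pairs the exact permutation p was 0.10 and the adjusted p 0.20. Atoh1, Sox2 and Barhl1 over Pou4f3 overlapped between the groups.

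Partners, opponents and relatives of the factors were taken from lists of 99 genes outside the group, of which 82 had a Padj, 6 were called lower and 4 higher, against 3.42% of all tested genes called lower and 2.32% called higher. The E proteins, with which ATOH1 dimerizes, moved in different directions. Tcf3 had 187, 298 and 397 normalized counts in Control and 814, 846 and 857 in IDPN, a log2-Fold_Change of 1.51 (DESeq2 Padj = 1.6e-07) called in every alternative fit. Tcf4 was lower (log2-Fold_Change -0.61, DESeq2 Padj = 0.00704), but was lost with edgeR, with total-count scaling and without Control 2 or IDPN 1, and Tcf12 stood at 0.15 (Padj = 0.787). The other cofactors include the LIM cofactors of LHX3 and ISL1 and the corepressors of GFI1 and INSM1. Among them no gene was called by DESeq2 or edgeR. Rcor1, Rcor2 and Hdac2 had an unadjusted DESeq2 p under 0.05 with higher values in IDPN. Such unadjusted p-values were common over all genes. The HC gene Cdh23, at an unadjusted DESeq2 p of 0.0395, had rank 2698 by p among the 17650 tested genes.

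Of the bHLH repressors and ID proteins that oppose ATOH1, 1 of 8 with a Padj was called lower and 1 was called higher, while 6 of the 8 had values above 0. Hey2, a Notch-dependent repressor, had 395, 334 and 568 normalized counts in Control and 180, 116 and 252 in IDPN (log2-Fold_Change -1.24, DESeq2 Padj = 0.00134, edgeR 0.0553). Id2 was higher (log2-Fold_Change 0.66, DESeq2 Padj = 0.0229), and 5 of the 13 alternative fits did not call it. The remaining members, Hes1, Hey1, Heyl, Id1, Id3 and Id4, did not pass the test, and Hes5 had too few counts for one.

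The list of EYA1 network genes, among them its relatives and Dach and Pax family genes, had 8 of 10 values below 0, a median of -0.35 and no call by DESeq2 or edgeR, with 3 genes at an unadjusted DESeq2 p under 0.05. Its median was -0.078 with total-count scaling and -0.12 without IDPN 2. The closest relatives of the 9 factors gave 1 call in 7, Atoh8, which was higher (log2-Fold_Change 1.13, DESeq2 Padj = 0.0497) and was lost in 6 of 13 alternative fits. Gfi1b, Barhl2 and Sox3 had no counts in any library.

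Among other HC factors, 1 of 15 was called, the ciliary factor Rfx3 (log2-Fold_Change -0.63, DESeq2 Padj = 0.0396), and the median of 0.01 was close to that of all tested genes. Among other otic factors, 2 of 20 were called, with Sox10 higher at 1938, 2625 and 3073 normalized counts in Control and 4025, 4752 and 4562 in IDPN (log2-Fold_Change 0.80, DESeq2 Padj = 0.00108) and the homeobox gene Gbx2 lower (log2-Fold_Change -1.11, DESeq2 Padj = 0.0360). Sox10, which is expressed by otic epithelium and by neural crest derivatives such as melanocytes and Schwann cells, was called in every alternative fit. Rfx3 and Gbx2 were each lost in 8 of 13.

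Known downstream genes had values on both sides of 0, and the lists do not separate genes that a factor raises from those it lowers. Of 10 genes downstream of ATOH1, 6 had values below 0 and 4 above, with a median of -0.10. Among them 3 were called lower, against 3.42% of all tested genes. These were Pou4f3 and Gfi1, themselves factors of the group, and the Notch ligand Dll1 (log2-Fold_Change -0.66, DESeq2 Padj = 0.0416, lost in 8 of 13 alternative fits). Of 6 genes downstream of POU4F3, which include Gfi1 and Lhx3 of the group itself, 5 had values below 0 and the median was -0.68. Gfi1 and Bdnf were called lower, against 3.42% of all tested genes. Bdnf, the neurotrophin that HCs supply to vestibular neurons, had 3486, 3313 and 3299 normalized counts in Control and 1125, 808 and 786 in IDPN (log2-Fold_Change -1.89, DESeq2 Padj = 1.48e-22). It too belongs to the genes that the study selected on these libraries and others. The rest of this list was not called, with Caprin1 at -0.03 (DESeq2 Padj = 0.962), Ntf3 at 0.64 (Padj = 0.569) and Nr2f2 at -0.77 (Padj = 0.0902).

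Neuronal transcription factors, several of which GFI1 is known to hold down in HCs, stayed near the detection limit. Neurod1, Neurod4 and Nhlh2 had no counts in any library, and 3 of the 10 had enough counts for a Padj, none of them called by DESeq2 or edgeR. The gene with an unadjusted DESeq2 p under 0.05 was Prdm12, at 0, 0 and 3.56 normalized counts in Control and 12.4, 24.1 and 10.3 in IDPN (DESeq2 Padj = 0.0612), which is named here after its values were seen. Isl2, the most abundant of the list, had 10.9 to 56.1 normalized counts in Control and 11.6 to 22.1 in IDPN (log2-Fold_Change -0.95, DESeq2 Padj = 0.512).

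**Figure D4:**
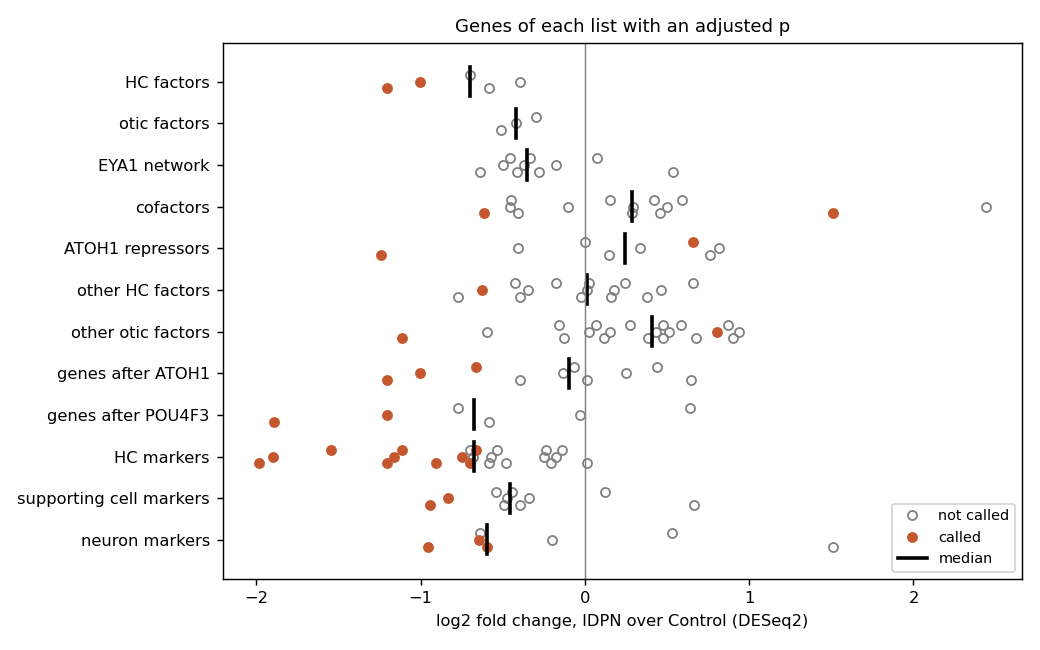
Log2-Fold_Change, IDPN over Control (horizontal axis), of the genes with a Padj in each of 12 lists, with filled points for called genes, open points for the others and black bars for the list medians. HC factors and HC markers sit mostly left of 0, with medians of -0.70 and -0.67. Neuron and supporting cell markers have medians of -0.59 and -0.46, while the median of other HC factors is 0.01.

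Markers of several cell types moved beside the factors. Of the 22 HC genes, 21 had values below 0 and 10 were called lower against 3.42% of all tested genes, namely Otof, Calb2, Ocm, Tmc1, Lhfpl5, Pcdh15, Slc17a8, Myo15, Ptprq and Xirp2. Their summed normalized counts ran from 80800 to 90289 in Control and from 49063 to 53449 in IDPN. Without Ocm, Ptprq and Xirp2, 7 of 19 were called and the median was -0.59. With total-count scaling 5 of the 22 were called, against 1.28% of all tested genes. The part of HC number in the values of Pou4f3 and Gfi1 was not tested.

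Of 10 supporting cell genes, 8 had values below 0 with a median of -0.46, and 2 were called lower, Gjb6 (log2-Fold_Change -0.94, DESeq2 Padj = 2.80e-05) and Fabp7 (-0.83, Padj = 0.0405). Otog (log2-Fold_Change -0.50, DESeq2 Padj = 0.0205) and Kcnj16 (-0.47, Padj = 0.0274) passed the Padj limit with fold changes under 1.5. Gjb6 was called in 12 of 13 alternative fits, with edgeR as the exception (adjusted p = 0.0690), and Fabp7 in 6 of 13. The supporting cell list had sums of 329980 to 469452 in Control and 237697 to 277527 in IDPN. Gjb6 alone had 116893 to 183753 and 71996 to 84106 of these, and Gjb2 had 79593 to 130825 and 61008 to 84252. The supporting cell genes above 0 were Lfng (log2-Fold_Change 0.66, DESeq2 Padj = 0.369) and Tecta (0.12, Padj = 0.811). Of 8 neuron genes 7 had a Padj, with 5 values below 0 and 2 above. Nefl, Nefm and Snap25 were called lower, but none of the 3 was called with total-count scaling. They were called in 9, 7 and 12 of 13 alternative fits. The list's sums were 5044 to 5233 in Control and 3222 to 3516 in IDPN. Nefl alone had 2953 to 3213 and 1936 to 2192 of these. Above 0 were Prph, at 4.9 to 20.5 normalized counts in Control and 30.1 to 46.3 in IDPN (log2-Fold_Change 1.51, DESeq2 Padj = 0.148), and Uchl1 (0.53, Padj = 0.597). The neuronal tubulin gene Tubb3 had only 5.0 to 18.2 normalized counts in any library. Of 7 immune genes 6 had a Padj, with 4 values above 0 and 2 below. Lyz2 was called higher, in 11 of 13 alternative fits too. The list's sums were 4549 to 5551 in Control and 6714 to 10206 in IDPN. Lyz2 alone had 3735 to 4597 and 5825 to 9133 of these. The others were Cd68 (0.79), Aif1 (0.61), Ptprc (0.07), Csf1r (-0.01) and Cx3cr1 (-0.10), none of them called. No Schwann cell, stromal or melanocyte gene was called by DESeq2 or edgeR. In these lists 3 of 6, 1 of 6 and 3 of 5 had an unadjusted DESeq2 p under 0.05, which was common over all genes. The most abundant of each, Pmp22, Dcn and Dct, had log2-Fold_Change values of -0.67, 0.36 and 0.65. Their sums were 94357 to 215421 against 83437 to 100133 for Schwann cell genes, 20441 to 39051 against 35993 to 38675 for stromal genes and 6056 to 14055 against 14340 to 21804 for melanocyte genes. The Schwann cell values rested on Control 1, which had 106520 normalized counts of Pmp22 where the other libraries had 37252 to 54654, and the list median of -0.40 was -0.042 without it. The part of these other cell types in the values of Isl1, Eya1, Sox2 and Sox10 was not tested.

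The genes whose profile over the 6 libraries was most like that of each factor were found among 11360 protein-coding genes, by the root mean square difference of centred log2 values. Nearest to Pou4f3 were Prss23, Hsd17b14 and Ccdc81, at 0.068 to 0.086, where the median gene was at 0.54. Nearest to Gfi1 were Igfbp5, the stereociliary calcium pump gene Atp2b2 and Cdk14, at 0.070 to 0.078, against a median of 0.65. Lhx3 was most like the neurofilament gene Nefm, then Fdps and Sorcs2, at 0.069 to 0.074. Isl1 was nearest to Elof1, Chchd6 and Polr2g, Eya1 to Pnpla8, Ccdc90b and Suclg2, Atoh1 to Lurap1l, Zfp729b and Rhebl1, and Sox2 to Prrx1, Cxxc4 and Maf. With 6 libraries in 2 groups, such likeness mostly reflects the group difference and the position of single libraries.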

How the data were processed

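Libraries followed a SMART-seq2 protocol without molecular identifiers, from 6 to 11 ng of RNA with 8 and 12 cycles of amplification. Per the study's methods and the submitters' processing notes, the authors aligned reads with STAR 2.5.3a to GRCm38 and ran RSEM 2.3.0. The deposited values are the estimated counts that the authors obtained from RSEM, as whole numbers without normalization or filter. RSEM divides reads that match several genes.

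DESeq2 1.42.0 (R 4.3.3) fitted all 52636 genes, using its Wald test, default size factors, no covariate and Benjamini-Hochberg adjustment (Padj). A gene was called at Padj under 0.05 and a fold change over 1.5. Intervals are 95% Wald intervals. edgeR 4.0.16 (quasi-likelihood test), other size factors, filters and left-out libraries were alternatives. Two-sided exact permutation tests served for single values. TPM used merged exon lengths from GENCODE M21, found for 99.7% of genes. Code was tested on simulated data. Of the listed genes, those called were named, or else the most abundant, and for each factor with a mean of at least 100 the 3 genes of most similar profile. The named factors and the lists were chosen with earlier results of these data known. Some genes that this rule names are not reported here. Replicates were numbered in accession order.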

Additional observations from a re-analysis of the deposited data

How the results depend on the processing

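Pou4f3 and Gfi1 kept their calls with both tools, each scaling and filter, and each left-out library, except that Pou4f3 did not pass the DESeq2 test against a 1.5-fold change (log2-Fold_Change -1.001, Padj = 0.323), which left 1 factor called in place of 2. Leaving out 1 library gave 2 to 4 called factors. Without Control 3, Lhx3 (log2-Fold_Change -0.63, DESeq2 Padj = 0.0369) and Isl1 (-0.60, Padj = 0.00950) were added. Without IDPN 2, Lhx3 was added at -0.77 (Padj = 0.00135). Over the left-out libraries Lhx3 ran from -0.77 to -0.49, Isl1 from -0.60 to -0.42 and Pou4f3 from -1.06 to -0.95. The causes were not tested.

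The context genes called lower numbered 6, and 1 with edgeR, 1 with total-count scaling, 3 without independent filtering and 2 to 5 without 1 library, while those called higher numbered 4, and 2 with edgeR and 2 to 7 without 1 library. HC markers called lower fell from 10 to 5 with total-count scaling, where fewer genes were called lower overall.

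Ratios to HC genes turned negative against Myo7a alone for Atoh1 (-0.78), Lhx3 (-0.64), Barhl1 (-0.42), Isl1 (-0.55), Eya1 (-0.34) and Sox2 (-0.53). Against Myo7a, Myo6 and Otof they did so for Atoh1 (-0.43), Lhx3 (-0.30), Barhl1 (-0.074), Isl1 (-0.20) and Sox2 (-0.18). Without the 3 genes that the study selected, a choice made after seeing the data, Atoh1 was at -0.17 and Lhx3 at -0.033. Leaving out 1 library moved Atoh1 from -0.20 to 0.24, Lhx3 from -0.032 to 0.24 and Sox2 from -0.090 to 0.50.

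With the longest transcript in place of the merged exons, TPM in Control and IDPN became 106.9 and 67.7 for Pou4f3, 19.97 and 16.7 for Lhx3, 19.5 and 17.3 for Isl1, and 41.5 and 43.2 for Eya1, which then exceeded Gfi1 at 36.2 in Control. No paired analysis was possible because the labels carry no replicate numbers shared between the groups. Depth limits Barhl1 and Insm1, whose counts were few, and reads without molecular identifiers are not independent molecules. The other 227 recomputed values behind these comparisons kept their direction and their side of the threshold, or moved by less than the spread between replicates.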

Other observations

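Control 1 stood apart in several of the listed genes, which are named here after their values were seen. It had 112 normalized counts of the Notch effector gene Hes1, where the other libraries had 605 to 1014, and 199 of the T-box gene Tbx1, where they had 1238 to 2098. Mreg was at 162 in Control 1 and at 704 to 1003 elsewhere. The homeobox gene Otx2 had no counts in Control 1, and 103 to 293 normalized counts in the other libraries. Pou4f3 and Gfi1 did not stand apart in this library, and without it their log2-Fold_Change values were -0.95 and -1.29.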
